A study of Mus musculus with 62 samples.

Results

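The genes *Bpifa1*, *Bpifb1*, *Scgb3a1*, *Scgb3a2*, *Cyp2f2*, *Wfdc2*, *Ltf*, *Muc5b*, *Sftpa1* and *Pigr* are known for their products in the secretory cells of the airways, and reads of all of them were present in heart libraries. These 10 genes of 10476 gene names in the table were chosen by their counts in these heart libraries, which rose and fell together in RNA-seq and Ribo-seq. Their levels, covariation and translation ratios are therefore given as a description, with no test. The fits of genotypes further below use the same libraries, and their p-values are a description too. They had 18 of the 23877 transcripts in the table, and for each gene the transcript with the highest mean count in heart RNA-seq was used. Transcripts of a gene can share reads, so that a read can be counted more than once in a total.

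Hearts came from mice at 10 weeks of age, and the groups were wild-type (WT, *Rpl3l*+/+) and *Rpl3l* KO (*Rpl3l*-/-) mice, which carry a germline deletion of exon 2 of *Rpl3l* made with CRISPR-Cas9. This gene encodes a ribosomal protein of heart and skeletal muscle. There were 4 libraries per genotype for RNA-seq, which measures mRNA abundance, for Ribo-seq, which sequences the mRNA fragment that 1 ribosome protects from RNase I, and for Disome-seq, which sequences the longer fragment under 2 abutting ribosomes. C2C12 myoblasts, an established mouse cell line, served here as muscle cells without airway tissue, with control, RPL3 OE and RPL3L OE cultures (3 RNA-seq and 3 Ribo-seq libraries each). Nothing in the labels says which part of the heart was taken or whether neighboring tissue was removed, and each heart library is a bulk sample, so that more cells of a type and more RNA per cell cannot be told apart.

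The conducting airways are lined by ciliated cells, which move mucus, and by secretory cells, which release the proteins of the airway surface liquid. Club cells, goblet cells and gland cells share this task. Their products include gel-forming mucins, secretoglobins, proteins of the BPI fold family and antimicrobial proteins, and club cells also hold cytochrome P450 enzymes that oxidize inhaled chemicals. None of these genes is known as a marker of cardiac muscle.

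Of the secreted proteins, *Bpifa1* (chr2:154142880-154149219, GRCm38, 9 exons) encodes SPLUNC1, an abundant protein of the airway surface liquid, and *Bpifb1* (chr2:154200379-154220343, 16 exons) encodes its larger relative LPLUNC1. *Scgb3a1* (chr11:49663610-49665118, 3 exons) and *Scgb3a2* encode secretoglobins, which are small proteins of secretory cells. *Muc5b* (chr7:141839070-141873084, 49 exons) encodes a gel-forming mucin, *Wfdc2* (chr2:164562579-164568510, 5 exons) a small protein with whey acidic protein domains, and *Ltf* (chr9:111019292-111042767, 17 exons) the iron-binding antimicrobial protein lactoferrin. *Sftpa1* (chr14:41131782-41134476, 5 exons) encodes surfactant protein A, a collectin of the lung. *Cyp2f2* (chr7:27119909-27133660, 10 exons) is the P450 enzyme of club cells, and *Pigr* (chr1:130826684-130852249, 11 exons) is the receptor that carries IgA and IgM across epithelia. Positions are those of the transcripts used, from GENCODE M21, and all of them lie on the plus strand.

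The promoters of *Bpifa1* and *Scgb3a1* are shown because *Bpifa1* had the highest level and *Scgb3a1* the disome signal given with the disome footprints. Windows of 300 bases, from 250 before to 50 after the start, were taken from RefSeq (GRCm38.p6) for 8 of the 10 genes. Capitals mark CTCAAG, a core of NKX2-1 sites, or its reverse complement CTTGAG. NKX2-1 is a transcription factor of lung and airway epithelium.

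Bpifa1, chr2:154142630-154142929, plus strand: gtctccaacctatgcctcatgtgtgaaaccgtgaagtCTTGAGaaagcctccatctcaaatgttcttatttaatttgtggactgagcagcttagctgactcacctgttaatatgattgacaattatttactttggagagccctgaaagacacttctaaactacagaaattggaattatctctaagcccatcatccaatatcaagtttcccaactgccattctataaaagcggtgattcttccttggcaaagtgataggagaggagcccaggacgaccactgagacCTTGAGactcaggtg
Scgb3a1, chr11:49663345-49663644, plus strand: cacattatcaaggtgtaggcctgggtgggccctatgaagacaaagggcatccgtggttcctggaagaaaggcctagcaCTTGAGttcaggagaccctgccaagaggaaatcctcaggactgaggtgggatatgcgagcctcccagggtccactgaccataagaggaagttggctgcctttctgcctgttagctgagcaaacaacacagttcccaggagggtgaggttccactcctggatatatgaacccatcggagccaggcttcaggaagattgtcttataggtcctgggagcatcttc

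The first base of the motif lay at position -213 and at position 35 from the start of *Bpifa1*, at -172 for *Scgb3a1* and at -166 for *Sftpa1*. Thus 3 genes of 8 held it on either strand, and 15.9% of the 32851 windows of all genes held it. TGTTTAC, a core of FOXA sites, was in the windows of 0 of the 8 genes and in 3.65% of all windows. A gene can have several windows, as *Bpifb1* and *Wfdc2* did, so a share of genes and a share of windows are not directly comparable. A match of letters is a description and not a binding site.

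The libraries were those of hearts by their markers. The 10 genes of 20 on the heart muscle list that the table holds, such as *Myl2*, *Tnnt2* and *Myl3*, summed to 50500 to 70000 CPM (counts in a library scaled to 1000000, with TMM factors) in every RNA-seq library. *Rpl3l* was lower in all KO libraries, with isoform ENSMUST00000045186.10 at 262 to 385 CPM in WT and 23.0 to 38.3 CPM in KO RNA-seq and isoform ENSMUST00000170239.8 at 369 to 541 and 24.4 to 40.6 CPM. Total counts were 3594696 to 22425296 in RNA-seq, 1606700 to 3192090 in Ribo-seq and only 39016 to 175747 in Disome-seq.

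In KO, RNA-seq and Ribo-seq libraries of the same number were not always the most alike. For genes on none of the lists (2845 genes), the deviation of each library from the mean of its genotype was compared between RNA-seq and Ribo-seq. In WT, each RNA-seq library went best with the Ribo-seq library of its own number, with correlations across genes of 0.14 to 0.31. In KO, numbers 1 and 4 also went together (0.45 and 0.23), but RNA-seq KO 2 went with Ribo-seq KO 3 (0.54, against -0.37 with KO 2) and RNA-seq KO 3 with Ribo-seq KO 2 (0.53, against -0.44 with KO 3). Genes are not independent replicates, and genes on none of the lists can still vary along with those on the lists. The labels name no animals, and whether equal numbers mark the same heart was not tested. Libraries were left under the numbers that the labels give. Results that rest on these numbers are given with and without KO 2 and KO 3.

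**Figure D1:**
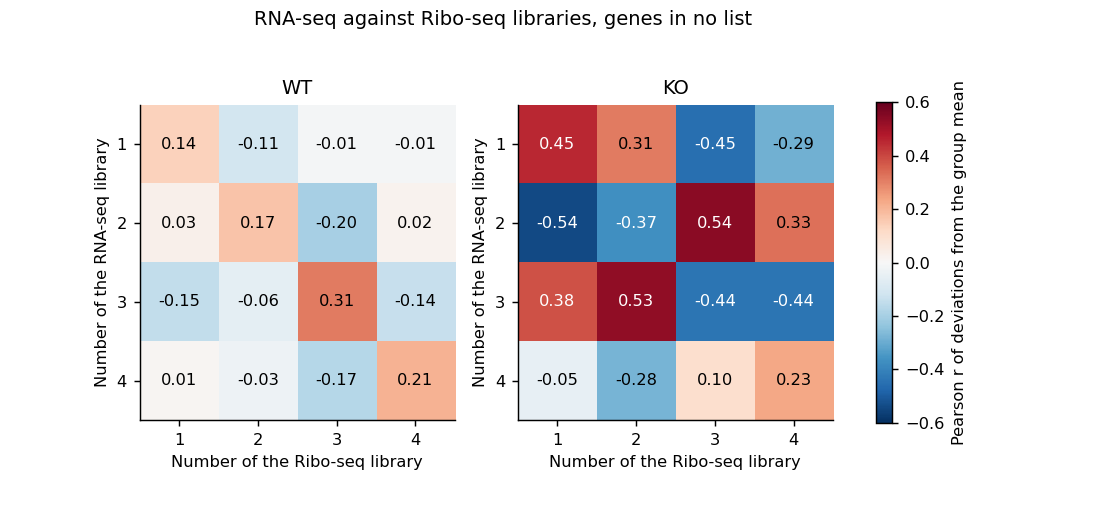
Pearson correlation of the deviations from the genotype mean between each RNA-seq library (rows, by number) and each Ribo-seq library (columns, by number), across 2845 genes in none of the lists, for WT (left) and KO (right) hearts. The highest value of each row is on the diagonal for WT but at numbers 3 and 2 for RNA-seq KO 2 and KO 3, with 0.54 and 0.53.

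The 10 genes divided the libraries in the same way. They took 0.0545% of all RNA-seq counts in WT 2, 0.0141% in WT 4, 0.137% in KO 1 and 0.197% in KO 3 (95% Wilson interval 0.196 to 0.199%). In RNA-seq WT 1, WT 3, KO 2 and KO 4, they took between 0.000119% and 0.000581%, which corresponds to 8 to 30 counts. In Ribo-seq, the share was 0.127% in WT 2, 0.0353% in WT 4, 0.288% in KO 1 and 0.390% in KO 2 (0.382 to 0.398%), and it was between 0.000311% and 0.00221% in WT 1, WT 3, KO 3 and KO 4. Disome-seq showed 0.0795% in WT 2 (34 counts), 0.0147% in WT 4 (6 counts), 0.247% in KO 1 and 0.365% in KO 2. In Disome-seq WT 1 and WT 3, none of 149783 and 109236 counts fell on these genes, and 1 and 2 counts did so in KO 3 and KO 4. These intervals cover counting error only. High libraries were thus found in both genotypes, and in RNA-seq number 3 but in Ribo-seq and Disome-seq number 2 was the highest of the KO libraries.

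**Figure D2:**
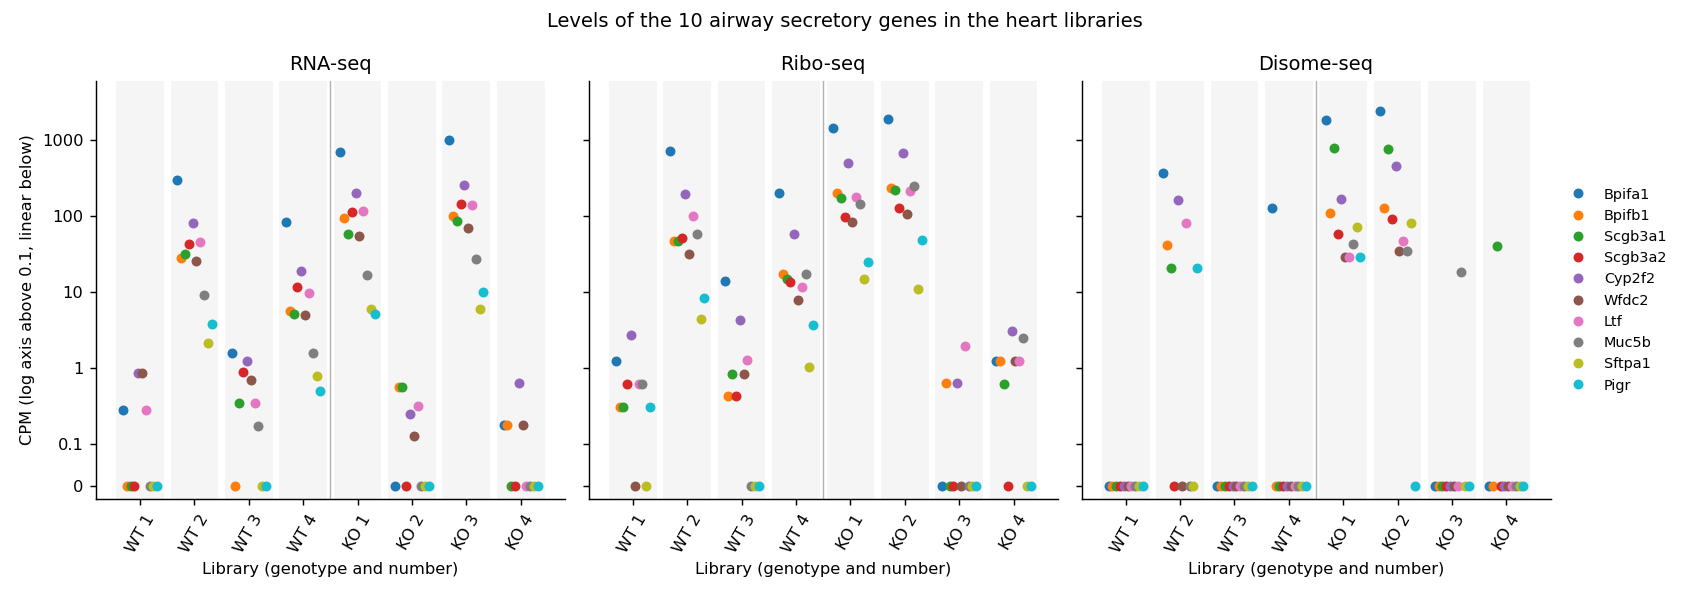
CPM of each of the 10 genes (colored points) in every heart library of RNA-seq, Ribo-seq and Disome-seq, with WT left and KO right of the line in each panel. The axis is logarithmic above 0.1 CPM and linear below, and points on the lowest line are at 0. In RNA-seq, all genes are higher in WT 2, WT 4, KO 1 and KO 3 than in the other libraries. In Ribo-seq, this holds for WT 2, WT 4, KO 1 and KO 2. Disome-seq has few counts: 10 genes are above 0 in KO 1, 9 in KO 2, 6 in WT 2 and only *Bpifa1* in WT 4.

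*Bpifa1* was the most abundant of the 10 genes. In RNA-seq, it stood at 0.285, 301, 1.59 and 83.1 CPM in WT 1 to WT 4 and at 701, 0, 1010 and 0.180 CPM in KO 1 to KO 4. In Ribo-seq, it stood at 1.23, 715, 14.0 and 203 CPM in WT and at 1440, 1910, 0 and 1.23 CPM in KO. By its level per transcript length, *Bpifa1* ranked 39th of 7788 detected genes in RNA-seq KO 3, and per coding length it ranked 27th of 7736 in Ribo-seq KO 2. All matched transcripts of the table lie on the plus strand, so that ranks, CPM and shares hold only among the genes in the table. In RNA-seq KO 2, it had 0 of 17325970 counts, and the highest library was at least 5330-fold above the floor of 3 counts in that library. The spread within a genotype exceeded its mean: RNA-seq gave 96.5 ± 142 CPM in WT and 428 ± 511 CPM in KO (SD, n = 4).

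*Cyp2f2* came next, with 0.854, 81.0, 1.23 and 19.1 CPM in WT and 200, 0.253, 257 and 0.630 CPM in KO RNA-seq. Its Ribo-seq levels were 2.76, 195, 4.26 and 58.5 CPM in WT and 505, 683, 0.646 and 3.07 CPM in KO. It had 3, 7, 4 and 7 counts in RNA-seq WT 1, WT 3, KO 2 and KO 4, and KO 3 was 1020-fold above KO 2. Its ranges in WT and KO overlapped in both assays.

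The secretoglobins moved with *Bpifa1*. *Scgb3a2* was at 0, 42.7, 0.882 and 11.7 CPM in WT and at 113, 0, 146 and 0 CPM in KO RNA-seq. *Scgb3a1* was at 0, 31.6, 0.353 and 5.16 CPM in WT and at 58.7, 0.570, 85.6 and 0 CPM in KO RNA-seq. In Ribo-seq, the order of the 2 genes differed between libraries. KO 2 had 219 CPM of *Scgb3a1* and 127 CPM of *Scgb3a2*, and KO 1 had 171 and 99.0 CPM, whereas WT 2 had 47.8 and 51.4 CPM and WT 4 had 14.8 and 13.7 CPM. Per coding kilobase, *Scgb3a1* was above *Scgb3a2* in KO 2 (703 and 466 CPM) and KO 1 (549 and 363 CPM) and below it in WT 2 (153 and 188 CPM) and WT 4 (47.3 and 50.2 CPM).

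The other secreted proteins showed the same division at lower levels. *Bpifb1* reached 102 CPM in RNA-seq KO 3 and 235 CPM in Ribo-seq KO 2, *Ltf* 142 and 217 CPM, and *Wfdc2* 69.5 and 108 CPM, and each of the 3 was at or below 0.854 CPM in RNA-seq WT 1, WT 3, KO 2 and KO 4. *Muc5b*, with 14964 bases by far the longest of the transcripts used, reached only 27.3 CPM in RNA-seq KO 3 but 251 CPM in Ribo-seq KO 2. The mucin was at 0, 9.26, 0.176 and 1.58 CPM in WT RNA-seq and at 16.9, 0, 27.3 and 0 CPM in KO RNA-seq.

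*Pigr* and *Sftpa1* were the least abundant. *Pigr* had 0, 16, 0 and 7 counts in WT and 70, 0, 243 and 0 counts in KO RNA-seq. *Sftpa1* had 0, 9, 0 and 11 counts in WT and 82, 0, 143 and 0 counts in KO RNA-seq, and 0, 11, 0 and 2 counts in WT and 29, 26, 0 and 0 counts in KO Ribo-seq. Both genes were thus at 0 in the 4 RNA-seq libraries in which the other genes were low.

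The order of the high libraries was shared. For 9 of the 10 genes, RNA-seq decreased from KO 3 to KO 1, WT 2 and WT 4, and Ribo-seq from KO 2 to KO 1, WT 2 and WT 4. The exception in both assays was *Sftpa1*, which was highest in KO 1, at 6.09 CPM in RNA-seq and 15.0 CPM in Ribo-seq. For all 10 genes, these 4 libraries lay above the other 4, whose highest count was 9 in RNA-seq (*Bpifa1* in WT 3, and *Bpifb1* and *Scgb3a1* in KO 2) and 33 in Ribo-seq (*Bpifa1* in WT 3). The ratio of the first to the fourth library was between 7.62 (*Sftpa1*) and 20.3 (*Pigr*) in RNA-seq and between 9.28 (*Scgb3a2*) and 18.7 (*Ltf*) in Ribo-seq. On log2 CPM (prior count of 2), the 36 pairs of the 9 genes that passed the count minimum (a mean of 10 per assay) correlated at 0.940 or more over the 8 RNA-seq libraries and at 0.937 or more over the 8 Ribo-seq libraries (Spearman correlation at least 0.778 in each). The libraries fell into 2 sets of 4, too few for a correlation within a set, and these values mostly describe that division.

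*Bpifa1* had the largest share of the counts of the 10 genes in every high library. It made up 51.2 to 58.4% of these counts in RNA-seq WT 2, WT 4, KO 1 and KO 3 and 50.2 to 58.1% in Ribo-seq WT 2, WT 4, KO 1 and KO 2. The shares of the other genes varied to different degrees. *Ltf* took 7.89% (Wilson interval 6.99 to 8.89%) in Ribo-seq WT 2 but 3.33% (2.21 to 4.99%) in WT 4. *Bpifb1* took 4.03% (3.25 to 4.99%) in RNA-seq WT 4 but 7.0% (6.64 to 7.37%) in KO 1. The ranges of the assays overlapped for 5 of the 10 genes. The share in Ribo-seq was above that in RNA-seq for *Muc5b* (4.57 to 6.58% against 1.11 to 1.62%), *Cyp2f2* (15.5 to 17.9% against 13.4 to 14.6%) and *Pigr* (0.676 to 1.26% against 0.353 to 0.665%). It was below that in RNA-seq for *Scgb3a2* (3.34 to 4.09% against 7.48 to 8.26%) and *Wfdc2* (2.27 to 2.94% against 3.48 to 4.53%). Per transcript kilobase, the highest level after *Bpifa1* was that of *Scgb3a2* in each of these RNA-seq libraries, with 266 against 916 CPM per kb in KO 3, and *Muc5b*, *Pigr* and *Sftpa1* were lowest, at 1.82, 2.65 and 7.06 CPM per kb.

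Neighbors on chromosome 2 did not share the signal in RNA-seq. *Bpifa1* and *Bpifb1* lie 51159 bases apart in a cluster of 13 Bpif genes in the table. Of the other 11, 9 had 0 counts in all heart RNA-seq libraries, and the highest count of any was 2. *Bpifa5*, which lies between *Bpifa1* and *Bpifb1* and was named after its values were seen, had 0 counts in RNA-seq. In Ribo-seq, it had 4, 2, 12 and 6 counts in WT 2, WT 4, KO 1 and KO 2 and 0 in the other libraries, the same division at low counts. Multiple mappings were allowed when reads were aligned, so that counts of related genes can be shared.

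The genes most like the 10 in their levels were then found. A score was made for each library from the 9 genes above, and the lower of the correlations with it over the 8 RNA-seq and the 8 Ribo-seq libraries was taken as likeness for 5262 other genes. The 12 genes with the highest likeness were *Cyp2a5* (0.993), *Cyp2a4* (0.991), *Sec14l3* (0.981), *Cdh1* (0.954), *Muc1* (0.952), *Adh7* (0.952), *Cebpa* (0.942), *Slc1a5* (0.938), *Acan* (0.932), *Muc4* (0.927), *Col10a1* (0.923) and *Tkt* (0.911). The median likeness of all genes was -0.247, and 0.836% of genes reached 0.8. *Cyp2a5* and *Cyp2a4* are near-identical P450 genes whose reads can be exchanged, *Muc1* and *Muc4* encode membrane mucins, *Cdh1* encodes E-cadherin, *Acan* and *Col10a1* encode proteins of cartilage, and *Cebpa* encodes a transcription factor.

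Among these genes, *Cyp2a5* had the levels nearest to those of the 10, with 0, 27.3, 0 and 7.38 CPM in WT and 121, 0, 165 and 0 CPM in KO RNA-seq. *Sec14l3* was at 0, 1.90, 0 and 1.15 CPM in WT and at 10.7, 0, 13.9 and 0 CPM in KO RNA-seq. *Cebpa*, *Slc1a5* and *Tkt* had counts in every library of both assays. *Cebpa* was at 4.59 to 11.9 CPM in WT and 3.61 to 19.0 CPM in KO RNA-seq. The RNA-seq level of *Slc1a5*, an amino acid transporter, was 15.0 to 48.0 CPM in WT and 15.0 to 95.7 CPM in KO, and that of *Tkt*, an enzyme of the pentose phosphate pathway, was 45.9 to 102 CPM in WT and 39.4 to 160 CPM in KO. With Spearman correlation, 5 of the 12 genes were still among the most alike.

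Lists of marker genes showed which other genes accompanied them. As a further description, chosen after the values were seen, the genes were counted that were higher in each of RNA-seq WT 2, WT 4, KO 1 and KO 3, or of Ribo-seq WT 2, WT 4, KO 1 and KO 2, than in all other libraries of the assay. Of all genes with counts, 3.05% in RNA-seq and 2.58% in Ribo-seq had this order. Of 43 other airway secretory genes, 21 were in the table and 10 had counts enough for a likeness, of which 6 reached 0.8. Of those with counts, 7 of 15 in RNA-seq and 6 of 19 in Ribo-seq had the order above. *Selenbp1*, *Gsta4* and *Por*, the most abundant of this list, were present in all hearts at 152 to 193, 115 to 159 and 55.0 to 101 CPM in RNA-seq, and their likeness was 0.586, -0.395 and 0.741. Of the 4 epithelial genes with a likeness, 3 reached 0.8, including the keratin genes *Krt18* (0.865) and *Krt7* (0.891), whereas *Dsp*, a desmosome gene that cardiac muscle also expresses, was at 0.146. The list of airway ciliated genes had 18 of 39 genes in the table but only 2 with enough counts. *Sec14l3* was at 0.981 and *Mlf1*, which was present in every heart at 223 to 277 CPM in RNA-seq, was at -0.337. *Cfap126*, the other ciliated gene among the top 3, ranged from 2.47 to 8.99 CPM in RNA-seq. Over the whole ciliated list, however, 8 of 18 genes in RNA-seq and 6 of 18 in Ribo-seq had the order above, as had 5 and 3 of the 11 epithelial genes. *Ccdc153*, a ciliated gene named after its values were seen, had 0, 12, 0 and 14 counts in WT and 116, 0, 272 and 0 counts in KO RNA-seq.

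Alveolar genes were mixed. Of 20 alveolar genes, 11 were in the table, and of the 4 with a likeness (*Abca3* at 0.615, *Clic5* at -0.537 and *Lpcat1* at -0.014 among them), 0 reached 0.8. The order above was found in 1 of the 11 in RNA-seq and 3 of the 11 in Ribo-seq. The 1 in RNA-seq was *Aqp5*, a water channel gene, with 0, 22, 0 and 11 counts in WT and 52, 0, 183 and 0 counts in KO, and in Ribo-seq it had 0, 11, 0 and 4 counts in WT and 29, 27, 0 and 0 counts in KO. *Sftpb* and *Ager*, which like *Aqp5* were named after their values were seen, were highest in RNA-seq KO 1 and not in KO 3. *Sftpb*, the surfactant protein B gene, had 98 counts in RNA-seq KO 1, 18 in KO 3 and 0 in the other 6 libraries. In Ribo-seq, *Sftpb* had 0, 1, 0 and 1 counts in WT and 15, 2, 0 and 0 counts in KO, and so had the order above at low counts. *Ager* had 39, 13 and 8 counts in RNA-seq KO 1, KO 3 and KO 4 and 2 or fewer in the others. Its Ribo-seq counts were 0, 0, 0 and 1 in WT and 9, 0, 1 and 0 in KO. Neither *Sftpb* nor *Ager* had any count in RNA-seq WT 2 or WT 4, where the 10 genes had 2407 and 1985 counts.

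Genes of other tissues moved with the 10 genes to different degrees, and their part in the result was not tested. The fat list, of which 9 of 16 genes were in the table and none was at 0, summed to 318, 495, 143 and 690 CPM in WT and 988, 63.5, 1430 and 151 CPM in KO RNA-seq, and in Ribo-seq to 547, 811, 315 and 1120 CPM in WT and 1680, 2460, 112 and 293 CPM in KO. The same 4 libraries of each assay were thus the highest for fat, but WT 4 was above WT 2 and the lowest RNA-seq library still held 63.5 CPM. Of its top genes, *Cfd* had a likeness of 0.836, *Cidea* of 0.855 and *Car3* of 0.793. The cartilage list (16 of 23 genes) ranged from 27.3 to 64.8 CPM in WT and from 33.9 to 86.9 CPM in KO RNA-seq, and 2 of its 6 genes with a likeness reached 0.8, *Acan* and *Cytl1* (0.809), whereas *Comp* was at 0.136 and *Chad* at 0.598. Of the fat genes, 6 of 9 in RNA-seq and 7 of 9 in Ribo-seq had the order above, and of the cartilage genes 4 of 16 in each assay.

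In the remaining lists, 0 genes had that order in either assay. None of the 4 blood, 6 atrial, 5 skeletal muscle and 10 heart muscle genes with a likeness reached 0.8. The blood list (5 of 9 genes) spanned 4220 to 6980 CPM in WT and 4870 to 10600 CPM in KO RNA-seq, with *Hba-a1*, *Hba-a2* and *Alas2* at likenesses of 0.159, 0.156 and 0.004. The atrial list (6 of 10 genes, led by *Nppa*, *Myl4* and *Stard10*) spanned 4960 to 6700 CPM in WT and 4310 to 5880 CPM in KO. The skeletal muscle list (7 of 15 genes, led by *Cacna1s*, *Tnnt3* and *Tnni2*) spanned 56.3 to 92.8 CPM and 39.7 to 72.6 CPM. The thymus and lymphocyte list (7 of 26 genes, led by *Cd79a*, *Cd3d* and *Cd8a*, with *Dntt* at 0) was low throughout, and none of its genes had enough counts for a likeness. Its sum was nevertheless highest in the same libraries as the 10 genes. It was 1.71, 2.85, 1.94 and 2.37 CPM in WT and 3.49, 1.46, 5.63 and 1.17 CPM in KO RNA-seq, from 6 to 134 counts. In Ribo-seq, it was 2.15, 4.05, 2.98 and 3.69 CPM in WT and 7.22, 6.32, 1.94 and 0.615 CPM in KO, from 1 to 15 counts.

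**Figure D3:**
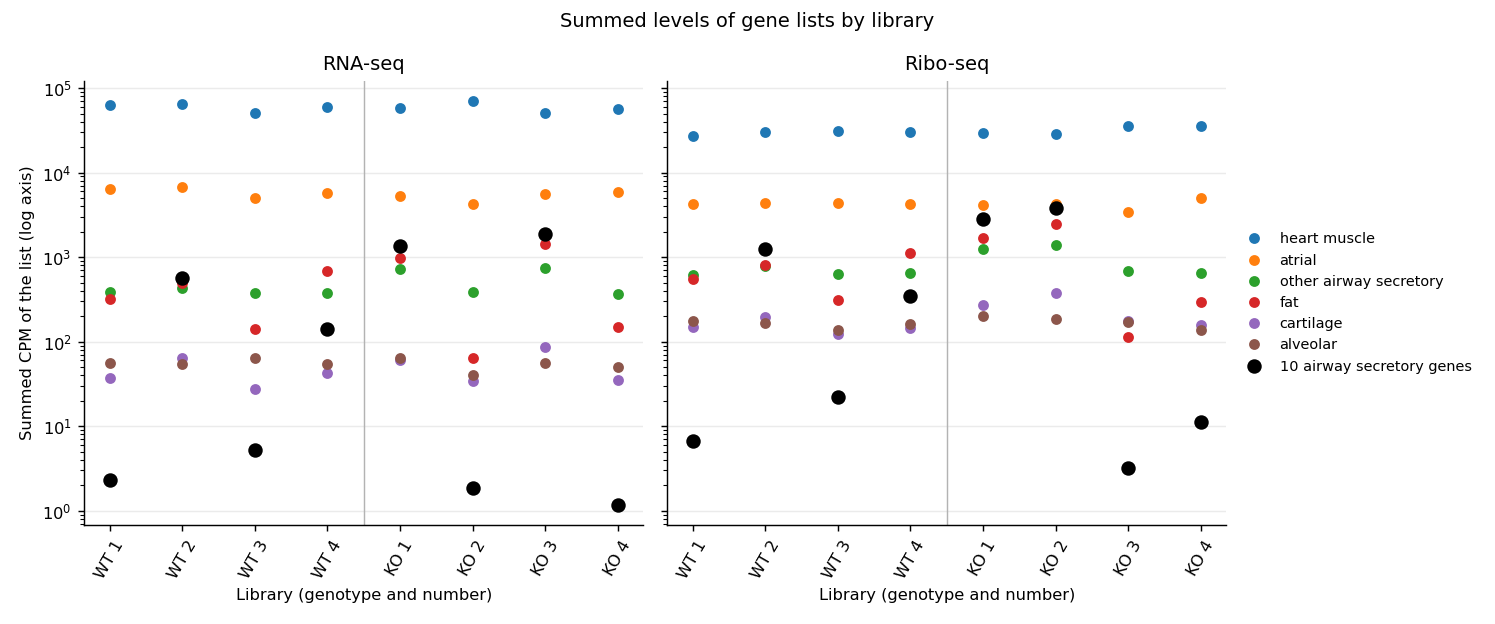
Summed CPM (log axis) of the 10 airway secretory genes (black) and of 6 other gene lists in each heart library of RNA-seq (left) and Ribo-seq (right). The black points span from 1.17 to 1860 CPM in RNA-seq and the fat genes from 63.5 to 1430 CPM, whereas heart muscle stays between 50500 and 70000 CPM.

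Ribosome footprints on the 10 genes were then set against their mRNA. The ratio of Ribo-seq to RNA-seq CPM was taken between libraries of the same number for WT 2, WT 4 and KO 1, in which both were high. Each such number was taken as a heart, and genes needed at least 10 counts in both libraries. The ratio compares shares of 2 libraries, not ribosomes per mRNA. The median log2 ratio of the 9 genes was 1.11 in WT 2 and 1.06 in KO 1, and that of 8 genes in WT 4 was 1.40, against medians of 0.48, 0.56 and 0.58 for all genes (SD over genes 1.19 to 1.24). From the means of the 4 libraries of a genotype, which do not depend on the numbers, the median was 1.00 in WT and 1.14 in KO, against 0.57 and 0.55 for all 5271 genes.

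*Muc5b* had the highest ratio of the 9 genes in all 3 hearts. Its log2 ratio was 2.63 in WT 2, 3.46 in WT 4 and 3.10 in KO 1, from 39, 22 and 227 RNA-seq counts and 142, 33 and 280 Ribo-seq counts. This mucin lay at the 96.4th to 98.7th percentile of all genes. *Scgb3a2* had the lowest ratio in WT 2, WT 4 and KO 1, at 0.27, 0.23 and -0.19, but *Wfdc2* in WT 2 (0.29) and *Ltf* in WT 4 (0.25) were close to it. Its percentile was 41.6, 36.7 and 22.7.

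The other genes lay between them, with spreads between hearts that overlapped. The mean log2 ratio over the 3 hearts was 1.41 ± 0.19 for *Cyp2f2*, 1.22 ± 0.54 for *Scgb3a1*, 1.19 ± 0.14 for *Bpifa1*, 1.13 ± 0.44 for *Bpifb1*, 0.65 ± 0.43 for *Ltf* and 0.53 ± 0.21 for *Wfdc2* (SD, n = 3 hearts). *Muc5b* stood at 3.06 ± 0.42 and *Scgb3a2* at 0.10 ± 0.25, so that the gap between these 2 genes was larger than either spread. *Pigr* had a ratio in only 2 hearts, at 1.16 in WT 2 and 2.28 in KO 1, and *Sftpa1* had too few counts.

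**Figure D4:**
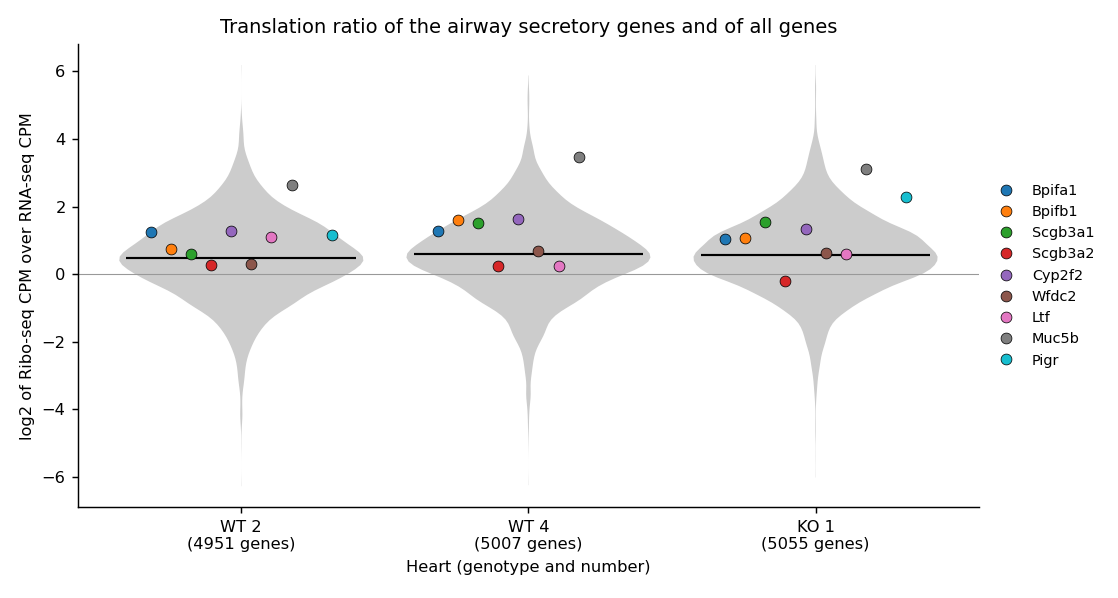
Log2 of Ribo-seq CPM over RNA-seq CPM in WT 2, WT 4 and KO 1. Gray shapes show all genes with at least 10 counts in both libraries (4951, 5007 and 5055 genes), black lines their medians, and colored points the airway secretory genes. *Muc5b* is the highest point in each heart, at 2.63, 3.46 and 3.10, and *Scgb3a2* the lowest, at 0.27, 0.23 and -0.19.

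Disome footprints did not follow the monosome footprints equally. In Disome-seq KO 1 and KO 2, the ratio of Disome-seq to Ribo-seq CPM of *Scgb3a1* was 4.67 (95% exact interval 3.73 to 5.81, from 110 and 332 counts) and 3.44 (2.62 to 4.46, from 65 and 521 counts). The medians over all genes with at least 10 counts in both were 1.43 and 1.45, and *Scgb3a1* ranked 47th of 1179 and 64th of 719 genes. These medians leave out genes with fewer disome counts and so lean to high ratios. For genes under 10 disome counts, they are therefore no even reference. The 2 columns summed for each of these libraries held 49 and 61 counts of *Scgb3a1* in KO 1 and 29 and 36 in KO 2. The labels do not say what sets these columns apart, so they are not counted as repeats. *Sftpa1* had ratios of 4.86 (2.11 to 10.3) and 7.42 (2.72 to 17.6) from 10 and 7 disome counts. In WT 2, *Scgb3a1* had 1 disome count against 118 in Ribo-seq, a ratio of 0.432 with an interval of 0.0108 to 2.45, so that WT 2 lay below the intervals of KO 1 and KO 2 on a single count.

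*Bpifa1* was near the median of all genes, at 1.27 (1.11 to 1.44) in KO 1 and 1.28 (1.11 to 1.47) in KO 2. Its ratio in WT 2 was 0.519 (0.307 to 0.823), from 18 disome counts, against a median of 1.23 there. *Bpifb1* was at 0.545 in both KO 1 and KO 2. *Cyp2f2* was at 0.331 (0.209 to 0.500) and 0.663 (0.470 to 0.911), and *Ltf*, *Wfdc2* and *Muc5b* were at 0.164 to 0.346 in KO 1 and 0.139 to 0.322 in KO 2, each from 6 disome counts or fewer. The interval of *Scgb3a1* overlapped that of *Sftpa1* but not that of *Bpifa1*, *Bpifb1*, *Cyp2f2*, *Ltf*, *Wfdc2*, *Muc5b*, *Scgb3a2* or *Pigr* in either heart. The intervals cover counting error only, and the small size of *Scgb3a1*, with 312 coding bases, leaves few positions for footprints. *Scgb3a2*, with 273 coding bases, was at 0.588 (0.250 to 1.18) in KO 1 and 0.731 (0.313 to 1.46) in KO 2, from 8 disome counts each. A part of coding length in these ratios was not tested.

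**Figure D5:**
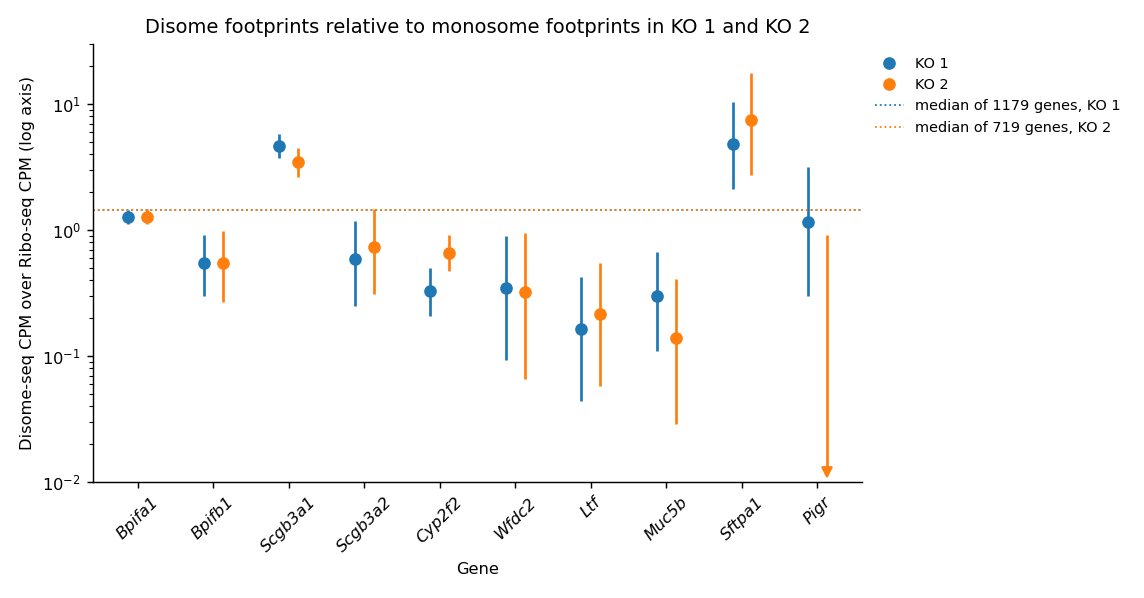
Ratio of Disome-seq CPM to Ribo-seq CPM (log axis) for each airway secretory gene in KO 1 (blue) and KO 2 (orange). Lines are 95% exact intervals of counting error, dotted lines the medians of all genes with at least 10 counts in both libraries, and the arrow marks 0 disome counts of *Pigr* in KO 2. *Scgb3a1* (4.67 and 3.44) and *Sftpa1* (4.86 and 7.42) lie above the medians of 1.43 and 1.45, and most others below. The medians leave out genes with fewer disome counts and lean to high ratios. For genes under 10 disome counts, they are no even reference, and a part of that filter in a place below them was not tested.

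The comparison of genotypes asked whether the levels of these genes depended on *Rpl3l*. Since the same libraries chose the genes, its values are a description. The fits (edgeR quasi-likelihood, Benjamini-Hochberg adjustment over all transcripts) called 0 of the 10 genes in RNA-seq, where 0.013% of 15394 transcripts were called, both of them isoforms of *Rpl3l*. They called 0 of the 9 genes tested in Ribo-seq, where 0.764% of 12695 transcripts were called. The ranges of WT and KO overlapped for every gene in both assays. Without adjustment, 1 gene in RNA-seq and 5 in Ribo-seq had a p-value under 0.05, as had 2.29% and 16.3% of all transcripts. DESeq2 called 0 of the genes in both assays, and 11 and 190 of all transcripts.

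The fitted differences were large but so were their errors. In RNA-seq, the log2 fold change of KO over WT was 2.03 to 2.63 with SEs of 1.15 to 1.5 (edgeR adjusted p = 0.999 for each). *Bpifb1* had the largest value, 2.63 ± 1.23 (SE). In Ribo-seq, it was 1.87 to 2.87 with SEs of 1.00 to 1.38, led by *Bpifb1* at 2.87 ± 1.08 (edgeR adjusted p = 0.207) and *Pigr* at 2.77 ± 1.00 (edgeR adjusted p = 0.194). Without KO 2 and KO 3, the ranges were 1.43 to 2.58 in RNA-seq and 1.64 to 2.74 in Ribo-seq, and 0 genes were called in either. Other fits moved them further, each with 0 called. In RNA-seq, they were 0.56 to 1.14 with a block for the replicate number, 0.82 to 1.99 without KO 3 and 2.90 to 4.15 without WT 2. In Ribo-seq, they were 1.02 to 2.77 with the block, 1.06 to 2.18 without KO 2 and 3.62 to 4.79 without WT 2. Over all transcripts, the medians were 0.004 and 0.011.

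Translation efficiency (TE), the interaction of genotype and assay, was not resolved for these genes. The fit called 0 of 9 genes and 0 of 12483 transcripts (0% of those tested, edgeR, with 805 at an unadjusted p-value under 0.05 and 22 called by DESeq2). The log2 fold changes of TE were between -0.40 (*Scgb3a2*) and 0.63 (*Scgb3a1*), with SEs of 1.93 to 2.43, so that changes of several fold in either direction lay within the error. Which KO number was left out decided the direction. Without KO 2 (both libraries of that number) the values were -1.58 to -0.55 for all 9 genes, and without KO 3 they were 0.73 to 2.17. Without both numbers they were -0.40 to 0.74.

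In Disome-seq, only *Scgb3a1* and *Bpifa1* had a mean count of at least 10. *Scgb3a1* had 0, 1, 0 and 0 counts in WT and 110, 65, 0 and 2 counts in KO. Its fitted log2 fold change was 6.39 ± 1.28 (SE, edgeR adjusted p = 0.0951), a value that depends on how WT counts of 0 and 1 are treated and is no bound. *Bpifa1* had 0, 18, 0 and 6 counts in WT and 250, 211, 0 and 0 counts in KO, with a log2 fold change of 3.22 ± 1.26 (SE, edgeR adjusted p = 0.940). Neither was called, and 0% of 1365 transcripts were (edgeR, 60 with an unadjusted p-value under 0.05, 0 called by DESeq2). Other fits changed these calls. *Scgb3a1* was called with a block for the replicate number (adjusted p = 0.00572 with edgeR), and without a count filter both *Scgb3a1* (6.6e-14) and *Bpifa1* (5.88e-13) were. These p-values come from the hearts that chose the genes, so they are a description and no evidence of a difference. They rest on KO 1 and KO 2, since KO 3 and KO 4 had at most 2 counts of either gene. For *Scgb3a1*, the adjusted p-value of edgeR was 0.00875 without WT 3, 0.000824 without KO 3 and 0.0165 without KO 2 and KO 3, and it was between 0.0759 and 0.313 without WT 1, WT 2, WT 4, KO 2 or KO 4. Without KO 1, this gene was under the count minimum. As in Ribo-seq, KO 1 and KO 2 lay above KO 3 and KO 4.

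The lists gave no called gene either. Of the other airway secretory genes, 0 of 11 were called in RNA-seq and 0 of 10 in Ribo-seq, with median log2 fold changes of 1.32 and 1.56. Of the ciliated genes, 0 of 13 and 0 of 2 were called (medians 2.32 and 1.33), of the epithelial genes 0 of 6 and 0 of 5 (1.31 and 1.36), and of the alveolar genes 0 of 7 and 0 of 4 (-0.13 and 0.02). The fat genes had medians of 0.65 and 0.76 with 0 of 7 called in each assay.

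C2C12 myoblasts gave the background of these measurements. In their 9 RNA-seq libraries, 7 of the 10 genes had 0 counts throughout, and the sum over the 10 genes was 0 to 9 counts (at most 0.344 CPM, here without TMM factors), mostly *Pigr* with up to 8. In their 9 Ribo-seq libraries, the sum was 11 to 30 counts (3.41 to 5.10 CPM), and only *Scgb3a2* was at 0 in all. *Muc5b* had 3 to 19 Ribo-seq counts with 0 RNA-seq counts, and *Sftpa1* had 0 to 6. The summed Ribo-seq level in heart KO 3, 3.23 CPM, was thus at the level of these myoblasts, that in WT 1 and KO 4 (6.75 and 11.1 CPM) a little above it, and that in WT 3, 22.1 CPM, clearly above it, with 33 of its 52 counts on *Bpifa1*. In RNA-seq, the lowest heart libraries, at 1.17 to 5.29 CPM, were all above the highest C2C12 library. In the m6A-seq table of the heart, 0 of 3181 peaks carried the name of one of the 10 genes. By the methods of the paper, these are coding-region peaks shared by all replicates of each genotype. Genes near 0 in some hearts can hardly meet that rule, and the share of all genes with a peak was not taken. This 0 therefore says nothing about m6A on the 10 genes.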

How the data were processed

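For each assay of footprints or mRNA, the authors deposited unnormalized read counts by transcript, and for m6A-seq peaks read counts with TPM values, of which only the peak names were used here. For Ribo-seq and Disome-seq, reads were trimmed with cutadapt, cleared of rRNA, aligned with STAR (GRCm38.p6 and mm10, multiple mappings allowed), deduplicated by UMI and counted with featureCounts; neither versions nor strandedness are given in the sources used here.

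Each transcript stood on 2 identical lines, of which 1 was used. GENCODE M21 matched 23662 of 23877 transcripts, all on the plus strand. The 2 Disome-seq columns that share a first replicate number were summed and taken as 1 mouse, which the labels do not state. Counts were fitted with edgeR 4.0.16 (quasi-likelihood, TMM within assay, mean count of at least 10, adjusted p-value under 0.05), without the replicate number. TE was the genotype-by-assay interaction. The fits were also run on simulated counts. These did not hold the shared division of libraries within a genotype, so that this run says nothing about the 10 genes. Of each group, 4 libraries limit the precision.

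The 10 genes, the lists and the rules for naming genes (12 genes by likeness, the top 3 of each list) were chosen with earlier results of these data known. Alternatives were other filters, library totals, DESeq2 1.42.0, 1 transcript per gene, a replicate block, leaving out libraries, and for shares, ratios and likeness the settings named in the closing section. Leaving out KO 2 and KO 3 together was added after seeing the data. The 4 libraries of a group were taken as 4 mice, as the study's methods describe them, although the labels do not name the animals, and p-values measure the spread between these samples.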

Additional observations from a re-analysis of the deposited data

Results flagged for a closer look

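Gaps within a group of 4 libraries were measured on log2 CPM as the distance of the highest or lowest library to its neighbor over the range of the group. In 8 of 230 such groups of the genes named above, this ratio exceeded the 95% critical value of Dixon's test, and chance alone sets apart about 1 group in 20. Only 1 of them concerned an airway secretory gene: in WT Disome-seq, *Scgb3a1* was above 0 in WT 2 alone (ratio 1.00), and this rests on 1 count. In RNA-seq and Ribo-seq, the airway secretory genes were chosen by counts that split the libraries of each genotype into high and low ones. This leaves little room for a single library set apart, so their near absence here is no result. *Col10a1* was above 0 in WT RNA-seq only in WT 2 (1.00, 6 counts). The others were *Gsta4* with KO 1 highest in Disome-seq (0.886), *Dsp* with WT 1 lowest (0.870) and KO 4 highest (0.965) in RNA-seq, *Myl4* with KO 2 lowest in RNA-seq (0.929), *Tnni2* with WT 3 lowest in Ribo-seq (0.905) and *Myl2* with WT 3 highest in Disome-seq (0.975).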

How the results depend on the processing

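The log2 fold changes of the 10 genes kept their direction and stayed outside the threshold in all 148 RNA-seq and 134 Ribo-seq refits, and over these fits the values in RNA-seq lay between 0.56 (with the replicate block) and 4.15 (without WT 2). Of 143 TE refits, 19 changed direction, none past the threshold. These were *Bpifb1* at -0.25, *Cyp2f2* at -0.96 and *Muc5b* at -0.07 with a replicate block, *Scgb3a2* at 0.05 and *Ltf* at 0.20 with a replicate block by heart, *Cyp2f2* at -0.06 on library totals and at -0.005 without KO 2 and KO 3, and fits that left out 1 number, whose values ran from -1.52 to 0.99 for *Bpifa1*, -0.90 to 1.23 for *Bpifb1*, -0.55 to 1.92 for *Scgb3a1*, -1.58 to 0.78 for *Scgb3a2*, -1.20 to 1.22 for *Cyp2f2*, -0.86 to 1.48 for *Wfdc2*, -1.52 to 0.96 for *Ltf*, -1.17 to 1.67 for *Muc5b* and -0.94 to 2.17 for *Pigr*. The cause was not tested.

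The number of transcripts called over the whole table changed more. In RNA-seq, it was 2, but 11 with DESeq2 and 1 with 1 transcript per gene. In Ribo-seq, 97 became 63 without a filter, 190 with DESeq2, 6 with 1 transcript per gene, 16 to 60 when 1 library was left out and 21 without KO 2 and KO 3. In TE, 0 became 22 with DESeq2 and 1 without KO 2 and KO 3. In Disome-seq, 0 became 3 without a filter, 2 with the replicate block, 2 without KO 2 and KO 3 and 0 to 2 when 1 library was left out. The transcripts called in Disome-seq under these settings were both transcripts of *Scgb3a1* and, without a filter, *Bpifa1* (log2 fold change 3.40, adjusted p = 5.88e-13 with edgeR), and *Scgb3a1* had an adjusted p of 6.6e-14 without a filter and of 0.00572 with the replicate block. The same hearts chose these genes, so these values are a description.

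WT and KO libraries of equal number were compared over genes in no list. The correlations were -0.12 to 0.15 in RNA-seq, -0.14 to 0.20 in Ribo-seq and -0.34 to 0.31 in Disome-seq (98 genes). Some of them reach the 0.14 to 0.31 seen between RNA-seq and Ribo-seq in WT, and values for unequal numbers are not given. Whether equal numbers pair WT with KO libraries is therefore not decided by these values. With the replicate block, the number of called transcripts was 109 in Ribo-seq, 2 in RNA-seq and 0 in TE.

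The share of counts on the 10 genes in the highest library was 0.262% in RNA-seq, 0.479% in Ribo-seq and 0.472% in Disome-seq with all their transcripts, and 0.282%, 0.470% and 0.503% without the 50 most abundant transcripts in the denominator. The median translation ratio kept within the spread between hearts, at 1.07 to 1.16 in WT and 1.06 to 1.12 in KO. By Spearman correlation, 5 of the 12 genes named by likeness were among the top 13. Disome-seq depth, at most 175747 counts, leaves 8 of the 10 genes without a test there.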
